A study of Mus musculus with 2 samples.

Results

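The genes described are 8 targets of the nuclear receptor Nr5a2 in steroid and bile metabolism: Scarb1, Star, Cyp11a1, Hsd3b1, Cyp19a1, Akr1b7, Cyp7a1 and Cyp8b1. Every probe that the array design names for one of them was taken, which gave 10 probes of 39429 and 8 genes of 31896. The study hybridised RNA of mouse ZHBTc4 embryonic stem (ES) cells on 2 two-colour oligonucleotide arrays. In ZHBTc4 cells both endogenous Oct4 alleles are disrupted and a transgene supplies Oct4 until doxycycline shuts it down. All cells here were doxycycline-treated and kept feeder-free on gelatin, with LIF at 1000 IU/ml and serum at 15%. Of the 3 stable clones, Nr5a2-EGFP clone 26 carried pCAG-IP/Nr5a2-EGFP, Oct4-EGFP clone 9 carried pCAG-IP/Oct4-EGFP and EGFP clone 2-5 carried pCAG-IP/EGFP. Nr5a2-EGFP was labelled with Cy5 on both arrays. Its Cy3 partner was EGFP on the EGFP array and Oct4-EGFP on the Oct4 array.

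NR5A receptors bind DNA as monomers at an extended single motif and regulate genes of cholesterol handling in liver, gonad, adrenal and gut. Nr5a2 (LRH-1) is best known for bile acid synthesis in liver and for ovarian steroid synthesis, and it also acts on Oct4 in ES cells. Steroid synthesis runs from cholesterol uptake (Scarb1) through its transfer into mitochondria (Star) and side-chain cleavage (Cyp11a1) to ring oxidation (Hsd3b1) and aromatisation (Cyp19a1). Akr1b7 reduces an aldehyde released by side-chain cleavage, and Cyp7a1 and Cyp8b1 hydroxylate the sterol ring on the way to bile acids.

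Each gene's value rests on the oligonucleotides printed for it, so 4 probes are shown, 3 of members that gave a signal and the Cyp8b1 probe, which did not. Each is 60 bases, taken from the array files with mm9 positions. The Star probe lies at chr8:26920280-26920339 on the plus strand. The Cyp11a1 probe maps to chr9:57874074-57874544 on the plus strand, a span of 471 bases, so that it crosses an intron and matches spliced message. The Scarb1 probe lies at chr5:125761540-125761599 and the Cyp8b1 probe at chr9:121824595-121824654, both on the minus strand.
Star probe 1: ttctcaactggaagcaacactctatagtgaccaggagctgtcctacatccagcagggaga
Cyp11a1 probe: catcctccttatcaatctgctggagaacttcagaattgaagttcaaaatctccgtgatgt
Scarb1 probe 1: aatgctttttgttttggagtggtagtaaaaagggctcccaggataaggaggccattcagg
Cyp8b1 probe: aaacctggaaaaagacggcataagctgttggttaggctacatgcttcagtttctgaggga

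Each pair of clones was read on 1 array, with no replicate culture and no dye swap, so no difference below has an error between cultures and no test was possible. Each transgene was represented by 1 monoclonal clone, so the transgene and whatever else distinguishes a clone cannot be told apart. Ratios are log2 of Cy5 over Cy3 after background correction and loess, and a gene is called higher or lower by size alone, at 2-fold or more at its brightest probe. Oct4-EGFP over EGFP is indirect, the ratio of the EGFP array minus that of the Oct4 array. The Nr5a2-EGFP clone is the only one read on both arrays: its Cy5 readings differed with an SD of 0.30 (log2) over 25506 genes, and 1.72% of the genes were at least 2-fold apart. Nr5a2 read lower in Nr5a2-EGFP than in EGFP. For Pou5f1 (Oct4), Oct4-EGFP over EGFP was -0.02 from Cy3 levels alone and 0.78 in the indirect comparison. Whether the transgenes hold these probe targets is not given, so the probes do not check the labels. The clones are named below as labelled. Between 79.2% and 80.9% of genes were well above background in each of the 4 readings. Of the members, 5 were well above background in Nr5a2-EGFP on the EGFP array and 4 on the Oct4 array, 5 in Oct4-EGFP and 4 in EGFP. The total RNA measured here does not separate a share of cells that express a gene from its level per cell.

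Star was the 1 member past 2-fold in the Nr5a2-EGFP clone over the EGFP clone, at 2.23-fold. Scarb1 was at 1.82-fold, and Cyp11a1 was well above background in Nr5a2-EGFP but not in EGFP. The bile acid hydroxylases Cyp7a1 and Cyp8b1, and the oxidoreductase Hsd3b1, were not well above background in any clone. Of 5 members measured, 1 was at least 2-fold higher in Nr5a2-EGFP (Star) and 0 were lower, where 3.34% of 25998 genes were higher and 5.07% lower. The median log2 ratio of the 5 was 0.86, beside 0.03 over all genes measured. Cyp11a1 (0.91) was among the 5 only through its Nr5a2-EGFP reading, so the filter set the side of its ratio. The 4 well above background in both clones had ratios of 1.16 (Star), 0.86 (Scarb1), 0.41 (Akr1b7) and -0.21 (Cyp19a1). The Star call was lost with the mean over its probes and with the other reading of Nr5a2-EGFP. With 5 genes, 1 call is a count too small to set against those shares.

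**Figure D1:**
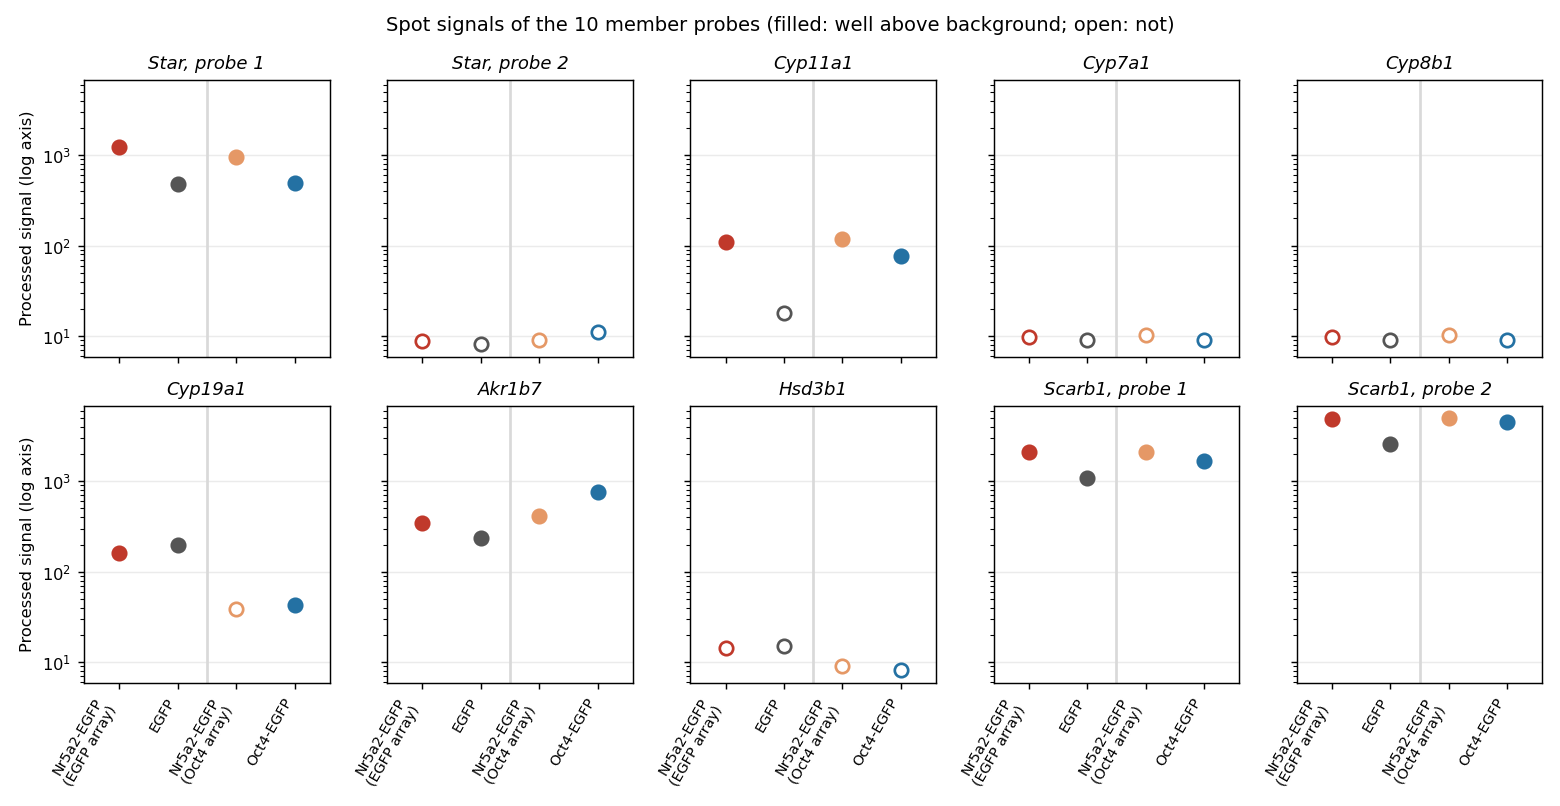
Processed signal of each of the 10 probes on a log axis, 1 point per reading, in the Nr5a2-EGFP and EGFP clones of the EGFP array and the Nr5a2-EGFP and Oct4-EGFP clones of the Oct4 array. Filled points are well above background and open points are not. Levels of different probes are not comparable. The second Star probe, Cyp7a1, Cyp8b1 and Hsd3b1 have open points only, and Cyp19a1 is brighter in both readings of the EGFP array.

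Scarb1 encodes the HDL receptor SR-BI, which takes up cholesteryl esters, the substrate store of steroid-forming cells. Its brightest probe (chr5:125757483-125757542, minus strand) had processed signals of 4838 and 4950 in the Nr5a2-EGFP clone on the EGFP and Oct4 arrays, 4496 in Oct4-EGFP and 2551 in EGFP. EGFP was the low clone, and Nr5a2-EGFP and Oct4-EGFP lay close together. The log2 ratio was 0.86 over EGFP, 0.09 over Oct4-EGFP and 0.78 for Oct4-EGFP over EGFP. The probe whose sequence is shown above read 2085 and 2082 in Nr5a2-EGFP, 1665 in Oct4-EGFP and 1077 in EGFP, with log2 ratios of 0.87, 0.25 and 0.62. Both probes gave the same order of clones, but with the other reading of Nr5a2-EGFP the ratio over Oct4-EGFP was -0.20 at the brighter and 0.13 at the dimmer. Their targets differ: the array design lists the brighter with 2 transcripts and the dimmer with 1. With the arrays centred on the median in place of loess, the brighter probe came to 1.06 over EGFP, past 2-fold.

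Star encodes the carrier protein that moves cholesterol to the inner mitochondrial membrane, the regulated step of steroid synthesis. Its first probe read 1231 and 959.6 in Nr5a2-EGFP, 498 in Oct4-EGFP and 485 in EGFP. Both readings of the Nr5a2-EGFP clone lay above both other clones, which read nearly alike. The log2 ratio was 1.16 over EGFP and 0.80 over Oct4-EGFP (1.74-fold), with software errors of 0.24 and 0.22 on that software's own ratios of 1.34 and 0.95. Oct4-EGFP over EGFP was 0.36. Taken with the Nr5a2-EGFP level of the other array, the ratios were 0.92 and 1.03, so Star was past 2-fold over EGFP but not Oct4-EGFP with one reading, and over Oct4-EGFP but not EGFP with the other. At 1.16, 2.04% of genes measured over EGFP had a ratio as high or higher, and at 0.80, 7.3% over Oct4-EGFP.

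The second Star probe (chr8:26925460-26925519, plus strand) starts at transcript base 3012, against base 232 for the first. It read 8.79 and 9.09 in Nr5a2-EGFP, 11.0 in Oct4-EGFP and 8.17 in EGFP, none of them well above background. The Star result therefore rests on 1 spot per array. Rodent Star is known for transcripts that differ in the length of the 3′ end, and the array design lists the first probe with 2 transcripts and the second with 1. Which transcripts these cells hold was not tested. Averaging the Star probes gave a log2 ratio of 0.61 over EGFP and 0.28 over Oct4-EGFP, below 2-fold.

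Cyp11a1 is the mitochondrial cytochrome P450 that cleaves the cholesterol side chain and makes pregnenolone. Its probe read 109 and 120 in Nr5a2-EGFP and 77.4 in Oct4-EGFP, against 18.0 in EGFP, where it was not well above background. EGFP was the low clone, by an amount that was not measured, and the readings of Nr5a2-EGFP lay near each other. On levels after loess and Aquantile, Cyp11a1 was at least 1.82-fold higher in Nr5a2-EGFP than in EGFP, where the bound sets the brighter level against the lowest level of any probe well above background in that channel. With median centring the fitted log2 ratio was 0.81, slightly under that bound. For Oct4-EGFP over EGFP the fitted log2 ratio was 0.55, and between 0.43 (median centring) and 1.97 (the software's ratios) over the alternatives. Nr5a2-EGFP over Oct4-EGFP was 0.36 on the log2 scale (1.29-fold).

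The size of the Cyp11a1 difference depended on how the dim EGFP reading was handled. The fitted log2 ratio over EGFP was 0.91 with a normexp offset of 50 and 1.35 with an offset of 16, while the authors' deposited table holds 2.59. The scanner software's ratio lay within its error of 0.48 of that value. The EGFP reading is below the well-above-background limit in each case, and none of these values is a measured fold.

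Hsd3b1 and Cyp19a1 act after side-chain cleavage. Hsd3b1 (chr3:98656127-98656186, minus strand) oxidises pregnenolone to progesterone, and its probe read 14.4 and 9.14 in Nr5a2-EGFP, 8.28 in Oct4-EGFP and 15.3 in EGFP. None was well above background. Of its close relatives, Hsd3b2, Hsd3b3 and Hsd3b5 were not well above background in any reading either, while Hsd3b4, named after its values were seen, was in all 4, with 83.9 and 59.4 in Nr5a2-EGFP, 55.3 in Oct4-EGFP and 49.9 in EGFP. Its log2 ratio was 0.35 over EGFP and 0.05 over Oct4-EGFP. Hsd3b6 read 15.3 and 74.8 in Nr5a2-EGFP, 83.2 in Oct4-EGFP and 21.1 in EGFP, and passed the limit on the Oct4 array only. Its readings went with the array, since those of the same Nr5a2-EGFP clone differed as much as those of different clones. Hsd3b genes are close paralogs, and sharing of target between their probes was not tested.

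Cyp19a1 (chr9:54013778-54013837, minus strand) encodes aromatase, which turns androgens into oestrogens. It read 159 and 39.3 in Nr5a2-EGFP, 43.2 in Oct4-EGFP and 197 in EGFP, and 39.3 was not well above background. Both readings of the EGFP array were high and both of the Oct4 array low, whichever clone they held. On the EGFP array the log2 ratio was -0.21. On the Oct4 array it was fitted at 0.05, with Nr5a2-EGFP not well above background, so that it is not a measured ratio. The level of the Nr5a2-EGFP clone differed by 0.96 (log2) between arrays, and 1.88% of genes differed by as much or more. With the Nr5a2-EGFP reading exchanged between arrays the ratios became -1.17 and 1.01, so a comparison of Cyp19a1 across arrays follows the array. The indirect ratio of -0.25 for Oct4-EGFP over EGFP was -1.21 from Cy3 levels alone.

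Akr1b7 (chr6:34372905-34372964, plus strand) encodes an aldo-keto reductase that detoxifies isocaproaldehyde, the side product of cholesterol cleavage. Its probe read 348 and 417 in Nr5a2-EGFP, 762 in Oct4-EGFP and 235 in EGFP. Oct4-EGFP was the high clone, EGFP the low one, and both Nr5a2-EGFP readings lay between them. The log2 ratio was 0.41 over EGFP (1.33-fold) and -0.85 over Oct4-EGFP (0.553-fold). Oct4-EGFP over EGFP came to 1.26 (2.4-fold), and 3.9% of 26340 genes had a ratio as high or higher. From Cy3 levels alone it was 1.55. Its ratio over Oct4-EGFP lay below 0 with loess, with median centring, with an offset of 16, in the software's ratio, in the authors' deposited table and with the other reading of Nr5a2-EGFP.

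**Figure D2:**
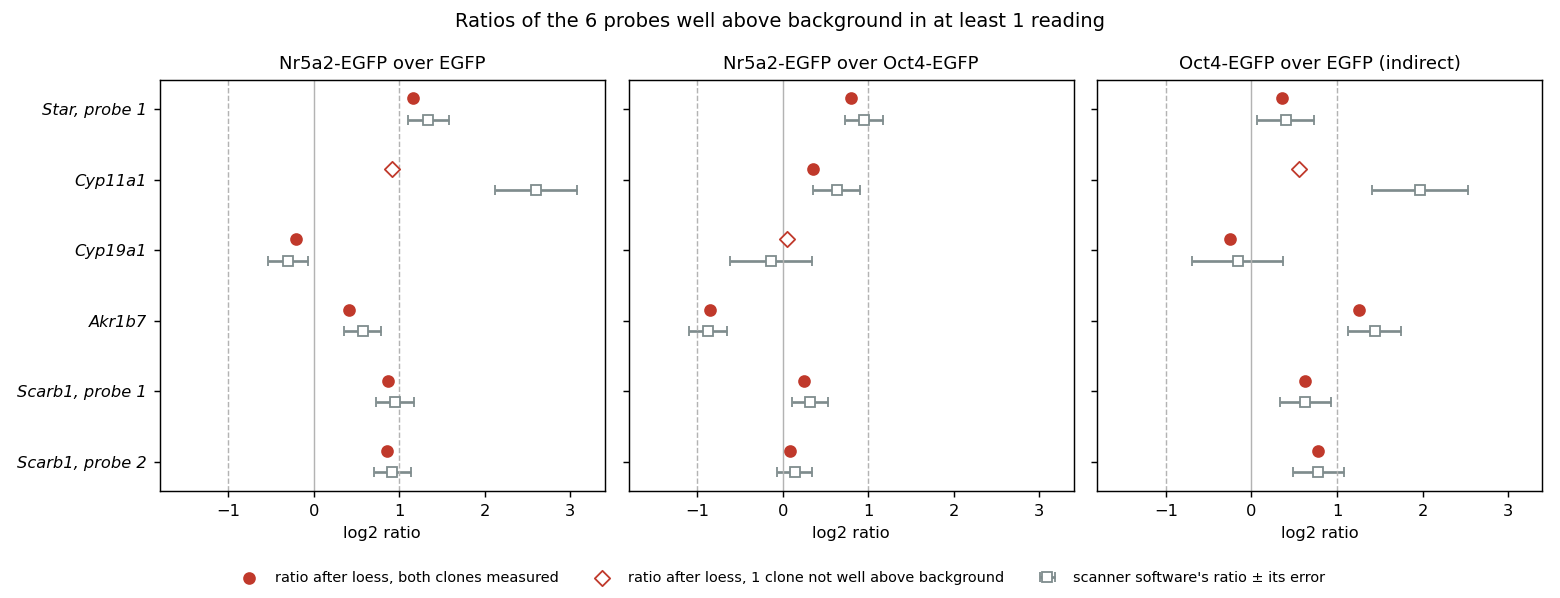
log2 ratio of each of the 6 probes that were well above background in at least 1 reading, in the 3 comparisons. Red symbols are ratios after loess, open diamonds where 1 clone was not well above background, and grey squares are the scanner software's ratio with its own error, which covers the spot and not the culture. Dashed lines mark 2-fold. Akr1b7 lies at 0.41, -0.85 and 1.26, and Cyp11a1 shows the widest gap between the methods.

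Against the Oct4-EGFP clone, no member moved by 2-fold. Of 5 members measured, 0 were at least 2-fold higher in Nr5a2-EGFP and 0 lower, where 4.54% of 26095 genes were higher and 7.11% lower. Their ratios ran between -0.85 (Akr1b7) and 0.80 (Star), with a median of 0.09, beside 0.01 over all genes. Scarb1 and Cyp11a1 were within 1.5-fold in this comparison. In the indirect comparison of Oct4-EGFP with EGFP, 1 member was higher (Akr1b7) and 0 were lower of 5, where 6.48% of genes were higher and 5.85% lower. The median of the members was 0.55, beside 0.02 over all genes. That 0.55 is the fitted ratio of Cyp11a1, which was well above background in Oct4-EGFP and not in EGFP, so the filter set its side. These comparisons share readings with the direct ones, so they are not independent of them.

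Among the 5 measured members, EGFP was the lowest of the 3 clones for 4: Star, Cyp11a1, Akr1b7 and Scarb1. Over 26701 genes EGFP was lowest in 35.1%. Cyp11a1 was not well above background in EGFP and entered through the other clones, so its place was set by the filter. The members well above background in EGFP were Star, Akr1b7 and Scarb1, with EGFP lowest, and Cyp19a1. For Star, Oct4-EGFP over EGFP was only 0.12 from Cy3 levels alone, and the repeated Nr5a2-EGFP readings had an SD of 0.30. Cyp19a1, the exception, followed the array. The order of the other clones was not shared, since Nr5a2-EGFP was highest for Star and Cyp11a1, Oct4-EGFP for Akr1b7, and they lay within 0.09 of each other for Scarb1. Star, Akr1b7 and Scarb1 also had EGFP lowest with median centring, an offset of 16, the software's ratios, the authors' deposited table and the other Nr5a2-EGFP reading. So did Cyp11a1, whose place the filter set under each setting. All of these settings use the same EGFP reading, which is 1 hybridisation.

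**Figure D3:**
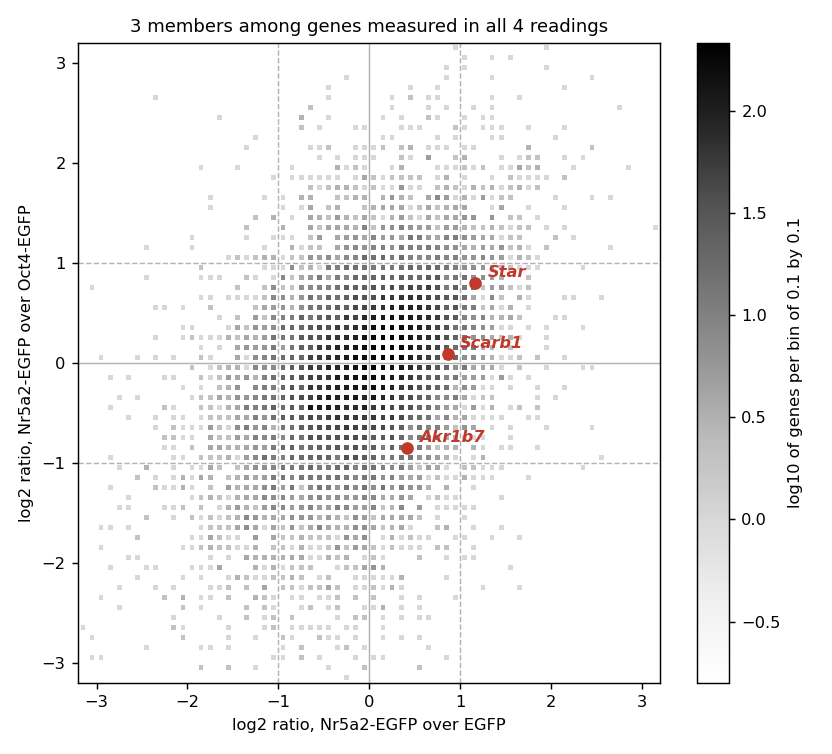
log2 ratio of Nr5a2-EGFP over EGFP (x axis) against that over Oct4-EGFP (y axis). Grey squares show how many genes well above background in all 4 readings fall in each bin, and red points are the 3 members among them. Both axes share the Nr5a2-EGFP clone. Star lies to the upper right at 1.16 and 0.80, Scarb1 at 0.86 and 0.09, and Akr1b7 below 0 on the y axis at -0.85.

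Among 23778 genes with all 4 readings, those nearest to each of these 3 members by Euclidean distance between the pairs of ratios were as follows. Phf23 (1.17 and 0.80) lay at 0.008 from Star, and 27 genes lay within 0.1. Asap3 (0.42 and -0.85) lay at 0.013 from Akr1b7, with 38 genes within 0.1. For Scarb1 the nearest were 4930405H06Rik (0.85 and 0.09) at 0.011 and Zpld1 at 0.014, with 84 genes within 0.1. Unnamed transcripts were the nearest to Star and the second nearest to Akr1b7. The likeness is over 2 ratios only.

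The bile acid members gave no signal above background. Cyp7a1, the rate-limiting enzyme of the classical bile acid pathway (chr4:6193456-6193515, minus strand), read 9.77 and 10.2 in Nr5a2-EGFP, 9.06 in Oct4-EGFP and 8.99 in EGFP. Cyp8b1, the sterol 12-alpha-hydroxylase that sets the ratio of bile acids, read 9.81 and 10.3 in Nr5a2-EGFP, 9.10 in Oct4-EGFP and 9.05 in EGFP. None of the 8 values was well above background, nor did any pass the software's weaker flag for a positive signal. The difference between clones was not measurable at this signal.

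Further genes of the pathway were counted by the same size rule. In steroid synthesis, of 19 genes measured over EGFP, 1 was higher and 0 lower, where 3.34% of all genes were higher and 5.07% lower. The median of the 19 was 0.25, beside 0.03 over all genes. The higher gene was Fdxr, the reductase that passes electrons through ferredoxin to the mitochondrial P450 enzymes, Cyp11a1 among them. It read 11926 and 9391 in Nr5a2-EGFP, 4503 in Oct4-EGFP and 4850 in EGFP. At 1.24 over EGFP and 1.02 over Oct4-EGFP (log2), Nr5a2-EGFP lay above both other clones, as it did for Star. Its electron carrier Fdx1 was at 0.19 and -0.36. Cyp17a1, which makes androgens, was within 0.15 in each comparison.

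The count depended on the centring of the array. With median centring in place of loess, 4 of the 19 were higher over EGFP: Fdxr (1.47), Hsd17b2 (1.11), Tspo (1.07) and Stard3 (1.03), where 5.99% of all genes were higher and 3.44% lower. That centring moved the median of all genes measured to 0.16, against 0.03 after loess. After loess Hsd17b2, which oxidises oestradiol and testosterone, was at 0.91, the mitochondrial cholesterol-binding protein gene Tspo at 0.81 and the late-endosomal cholesterol carrier gene Stard3 at 0.78. Tspo and Stard3 were named after their values were seen. Against Oct4-EGFP, 1 of 19 was higher (Fdxr) and 0 lower, where 4.54% of all genes were higher and 7.11% lower. The median of the 19 was -0.06. In Oct4-EGFP over EGFP, 2 of 20 were higher, Hsd17b2 and the P450 reductase gene Por, both at 1.10. The share of all genes that were higher there was 6.48%.

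In bile acid metabolism 0 of 21 further genes were higher in Nr5a2-EGFP than in EGFP and 2 were lower, with a median of -0.07. The shares of all genes were 3.34% higher and 5.07% lower. The lower genes of the list were Slc27a5 (-1.07), which activates bile acids for conjugation, and the oxysterol hydroxylase gene Cyp7b1 (-1.06). Neither passed 2-fold with median centring, at -0.88 and -0.91, while a second, dimmer Slc27a5 probe was at -1.47 after loess and -1.28 with median centring, and at -1.01 over Oct4-EGFP. At the brightest probes over Oct4-EGFP, 0 of 19 were higher and 1 lower, the phospholipid transporter gene Abcb4 (-1.13). There 4.54% of all genes were higher and 7.11% lower. With median centring 1 of the 19 was higher, Abcc3 (1.01, named after its value was seen), where 5.72% of all genes were. In Oct4-EGFP over EGFP 3 of 19 were lower, where 5.85% of all genes were. They were Cyp7b1 (-1.36), Hsd3b7 (-1.25) and Acox2, the last named after its value was seen and at -0.88 with median centring. Cyp27a1, which opens the alternative pathway, was not well above background in any reading.

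**Figure D4:**
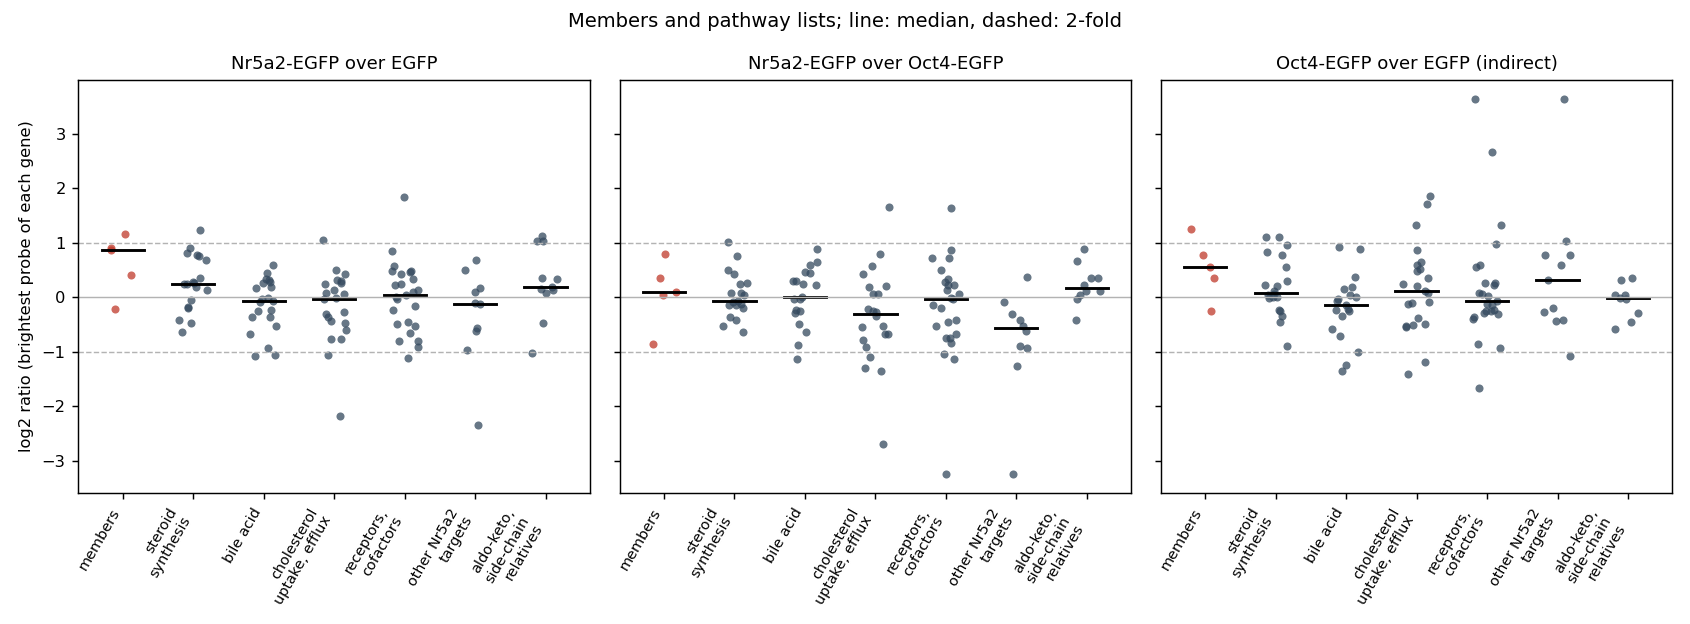
log2 ratio at the brightest probe of each measured gene for the members (red) and the 6 pathway lists (dark), in the 3 comparisons. The black line is the median and dashed lines mark 2-fold. The members' median lies at 0.86 over EGFP, 0.09 over Oct4-EGFP and 0.55 in the indirect comparison, and most genes of the lists lie inside the dashed lines. The members include Cyp11a1, which was not well above background in EGFP.

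Of 22 cholesterol uptake and efflux genes over EGFP, 1 was higher and 2 lower, where 3.34% of all genes were higher and 5.07% lower. The median of the list was -0.03. Abcg1, which exports cholesterol to HDL, read 760.3 and 1056 in Nr5a2-EGFP, 7240 in Oct4-EGFP and 3726 in EGFP. Its log2 ratio was -2.18 over EGFP and -2.70 over Oct4-EGFP. Both Nr5a2-EGFP readings lay below both other clones. Abcg5, an exporter of sterols into bile, was at -1.06, and at -0.89 with median centring, while the cholesteryl ester hydrolase gene Lipe was at 1.05. Over Oct4-EGFP 1 of 22 was higher and 4 were lower, with a median of -0.30, where 4.54% of all genes were higher and 7.11% lower. Beside Abcg1 the lower genes were Scarb2 (-1.36), the endocytic receptor gene Lrp1 (-1.30) and Lipa (-1.09, named after its value was seen).

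Of 25 receptors and cofactors over EGFP, 1 was higher and 1 lower, where 3.34% of all genes were higher and 5.07% lower. The median of the list was 0.05. Nrip1, a corepressor of nuclear receptors, was at 1.84, but its other probe gave 0.19. Hnf4a, a hepatic partner of Nr5a2 at bile acid genes, was at -1.11, and at -0.92 with median centring. Over Oct4-EGFP 1 was higher, the coactivator gene Ncoa2 (1.64), and 3 were lower: Nr0b1 (-3.25), Nr5a2 (-1.14) and Hnf4a (-1.04, and -0.98 with median centring). There 4.54% of all genes were higher and 7.11% lower. Nr0b1 encodes Dax1, a repressor of NR5A receptors, and read 40.7 and 250.8 in Nr5a2-EGFP, 2856 in Oct4-EGFP and 10.4 in EGFP, the 40.7 and 10.4 not well above background. The Nr5a2-EGFP readings differed by -1.42 in log2 level, EGFP array minus Oct4 array. Nr5a1 (SF-1), the paralog that drives these genes in adrenal and gonad, read 1639 and 1897 in Nr5a2-EGFP, 3084 in Oct4-EGFP and 1330 in EGFP, with log2 ratios of 0.23 over EGFP, -0.75 over Oct4-EGFP and 0.98 for Oct4-EGFP over EGFP. Nr5a1 and Akr1b7 had the same order of clones, while Star and Cyp11a1 had another, and a link to Nr5a1 was not tested. Nr0b2 (SHP), the feedback repressor of Cyp7a1, was at -0.45 and -0.53.

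Known Nr5a2 targets of other pathways were counted in the same way. Of 10 measured over EGFP 0 were higher and 1 lower, the cell cycle gene Ccnd1 (-2.34), with a median of -0.11. The shares of all genes were 3.34% higher and 5.07% lower. Over Oct4-EGFP 0 of 10 were higher and 2 lower, Nr0b1 and Ccnd1 (-1.26), with a median of -0.57. There 4.54% of all genes were higher and 7.11% lower. Among 11 aldo-keto and side-chain relatives over EGFP 3 were higher and 1 lower, beside the same shares of 3.34% and 5.07%. The higher genes were the vitamin D hydroxylase gene Cyp27b1 (1.04), Cyp26a1 and Akr1c12, and the lower was Akr1b10 (-1.02). Cyp26a1 and Akr1c12 were not well above background in EGFP, so the filter set the side of their ratios. Both were named after their values were seen. With median centring 2 were higher and 0 lower, where 5.99% and 3.44% of all genes were. Akr1c12 then came to 0.86 and Akr1b10 to -0.81. The Akr1b7 paralogs Akr1b8 (-0.48 over EGFP, -0.03 over Oct4-EGFP) and Akr1b3 (0.14 and 0.11) did not have the Akr1b7 pattern. None of 10 moved by 2-fold over Oct4-EGFP.

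The labels were set beside the transgenes and cell markers. The brighter Nr5a2 probe read 1407 and 1317 in Nr5a2-EGFP, 2856 in Oct4-EGFP and 2641 in EGFP, lower in the clone that carries the Nr5a2 transgene. The probes start at transcript bases 2918 and 2109, and no source used here says whether the transgene holds them, so they do not check the labels. The endogenous gene and a transgene without this stretch cannot be told apart. Pou5f1, which encodes Oct4, read 104 and 28.8 in Nr5a2-EGFP, 116 in Oct4-EGFP and 118 in EGFP, the 28.8 not well above background. By Cy3 levels alone the clone labelled Oct4-EGFP thus read no higher than EGFP, with a log2 ratio of -0.02. The indirect comparison gave 0.78, through an Nr5a2-EGFP reading that was not well above background. The probe starts at transcript base 903, and no source used here says whether the transgene holds it. Gapdh, often used as a control, was at 0.59 over EGFP and 0.01 over Oct4-EGFP, and Actb at -0.33 and 1.44. Over the 7 Gapdh probes the ratio over EGFP ran from 0.06 to 0.83, the highest close to that of Scarb1 (0.86). The probe at 0.83 maps to chromosome 8 and the others to chromosome 6. With the other reading of Nr5a2-EGFP it was at -0.13, where Scarb1 was at 1.15. Over Oct4-EGFP, Actb lay above every member, but with the other reading it was at 0.61, below Star at 1.03.

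Of 15 ES cell markers, 14 were well above background in Nr5a2-EGFP on either array, 15 in Oct4-EGFP and 14 in EGFP. In Nr5a2-EGFP 10 of the 15 were lower than in Oct4-EGFP and 0 higher. Over EGFP, 1 of 14 measured was higher and 3 were lower. Over Oct4-EGFP 4.54% of all genes were higher and 7.11% lower, and over EGFP 3.34% and 5.07%. Of the trophoblast markers, 10 of 14 measured were higher in Nr5a2-EGFP than in Oct4-EGFP and 0 lower, with summed signals of 151822 and 122384 in Nr5a2-EGFP, 33332 in Oct4-EGFP and 184563 in EGFP. Elf5 and Tpbpa were not well above background in any reading. Over EGFP 1 of 13 was higher and 1 lower. The low clone for these markers was Oct4-EGFP, and that for Akr1b7 and Scarb1 was EGFP. For Star, EGFP and Oct4-EGFP read nearly alike, and for Cyp11a1 the filter set EGFP low. The part of trophoblast cells in the members' values was not tested. Adrenal and gonadal steroidogenic cell markers gave 0 higher and 0 lower in each comparison after loess. With median centring 1 of 8, Nr5a1 (1.08), was higher in Oct4-EGFP over EGFP. The hormone receptors Mc2r, Lhcgr and Fshr and the aldosterone synthase gene Cyp11b2 were not well above background in any reading. In each reading 7 or 8 of the 12 markers were well above background. Their summed signals of 65559 and 52365 in Nr5a2-EGFP, 71303 in Oct4-EGFP and 103272 in EGFP came mostly from 1 Foxl2 probe that was saturated in Cy5 on both arrays, so they do not compare the clones. For visceral endoderm and hepatocyte markers, 11 to 15 of 18 were well above background, and Afp and Alb were not in any reading. Over EGFP 0 of 15 measured markers of this list were higher and 2 lower, and over Oct4-EGFP 1 of 15 was higher and 1 lower. With median centring 1 was lower over EGFP and 0 over Oct4-EGFP. The summed signals of the list were 16592 and 17466 in Nr5a2-EGFP, 16187 in Oct4-EGFP and 15055 in EGFP. A large part came from 1 probe, with 8526 and 10111 in Nr5a2-EGFP, 9850 in Oct4-EGFP and 6524 in EGFP, so these sums do not compare the clones either.

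The promoters of the members were searched for the NR5A motif, as CAAGGTCA or CAAGGCCA on either strand, in RefSeq windows of 250 bases before to 50 after the start (GRCm38). Windows were at hand for 5 of the 8 genes, and Star, Cyp7a1 and Scarb1 were not searched. Of the 5, 1 held a match: Cyp19a1, with CAAGGCCA on the opposite strand (TGGCCTTG) beginning 18 bases after the start. Over all genes with a window, 4.48% of 27025 held a match. A match is a run of letters and not a binding site, and the windows leave out enhancers and further promoters of these genes.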

How the data were processed

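The authors deposited spot intensity values per array, extracted with Agilent Feature Extraction 10.7.3.1 per the file headers (9.3.2.1 per the submitters' processing notes), for 2 arrays of design 026655 on 1 slide, in 1 scan, with mm9 positions. Processed intensity was, per the file headers, background-subtracted, detrended and dye-normalized within the array, so processed signals are not scaled between arrays. The log10 ratio of Cy5 over Cy3, and its error, a score of the software's error model, are as the authors deposited them, converted to log2 here. A value table of log2 ratios that the authors also deposited correlated with the software's ratios at r = 0.997 on each array. Its medians were 0.03 (EGFP array) and 0.05 (Oct4 array), and its exact scale and centring are not given in the sources used here.

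Mean spot signal and local background were corrected with normexp (offset 50) and loess in limma 3.58.1 (R 4.3.3). Control and outlier-flagged spots (530 and 523) had no weight and were then left out. Single channels were scaled by Aquantile, which also gave the bounds. No member probe was saturated or outlier-flagged, and each was printed once. Probes printed 10 times (399) had a median SD of 0.0679 (EGFP array) and 0.066 (Oct4 array) in log2 ratio, an error within the slide. Precision is limited by there being 1 array per comparison. Gene names are those of the files; 66.1% of probes matched RefSeq by accession. A gene was measured if its brightest probe was well above background in at least 1 channel compared. The steps were tested on simulated data, with differences planted only in probes brighter than the median, so the test does not cover dim probes.

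The named genes were the members, Nr5a2, Pou5f1, Gapdh, Actb, fixed relatives, the 2 highest and 2 lowest genes of each of 6 pathway lists past 2-fold, marker genes, and the nearest genes by ratio; 1 gene that the rule named is not reported here. Members and lists were chosen with earlier results of these data known. Other centring, offset, ratios, filters, probe rule, size rule and reading were tried as alternatives.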

Additional observations from a re-analysis of the deposited data

How the results depend on the processing

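Shares of all genes under the same rule stand beside each count. The number of members at least 2-fold higher in Nr5a2-EGFP than in EGFP, 1 as reported (3.34%), was 2 with median centring (Star, Scarb1; 5.99%), 2 with an offset of 16 (4.28%), 2 in the software's ratios (6.92%) and 2 in the authors' deposited table (6.92%), each Star and Cyp11a1. It was 0 with the mean over probes (2.75%), 3 at a 1.5-fold rule (12.6%) and 2 with the other Nr5a2-EGFP reading (Cyp11a1, Scarb1; 4.87%). That reading also gave 1 lower member (Cyp19a1; 6.51%) in place of 0. Over Oct4-EGFP, 0 higher became 1 at 1.5-fold (Star; 12.7%) and 2 with the other reading (Star, Cyp19a1; 6.29%), and 0 lower became 1 under each of these (Akr1b7), where 16% and 8.62% of genes were lower. For Oct4-EGFP over EGFP, 1 higher became 2 in the software's ratios (9.76%) and 2 in the table (9.26%), both Cyp11a1 and Akr1b7. It became 2 at 1.5-fold (15.9%) and 2 from Cy3 levels alone (8.67%), both Akr1b7 and Scarb1. Cy3 levels also gave 1 lower (Cyp19a1; 7.79%) in place of 0. The cause of these changes was not tested. No paired analysis was possible because each pair of clones has 1 array. Signal near background limits Cyp11a1 in EGFP, and leaves Hsd3b1, Cyp7a1 and Cyp8b1 without a ratio.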
